A study of Homo sapiens with 12 samples.

Results

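The regions described here are the 4942 stretches of chromatin that were on the enzalutamide list, overlapped by at least 1 bp no region listed for OSU-ERb-12 or for both agents together, and had at least 1 base within 1 kb of either end of a protein-coding gene in the RefSeq annotation of GRCh38. They are called enzalutamide-only gene-end regions. They were selected on the measured lists themselves, out of 25317 enzalutamide regions and out of 49496 regions in the 3 lists analysed. Chromatin accessibility had been profiled by ATAC-seq, in which a transposase cuts DNA that it can reach. The cells were 22Rv1, an established cell line from a human prostate cancer, labelled as wild type in all samples. There were 12 samples in 4 groups of 3: enzalutamide at 1 µM for 6 h, OSU-ERb-12 at 100 nM for 6 h, OSU-ERb-12 plus enzalutamide for 6 h with no dose on those samples' own labels, and vehicle. Oestradiol treatments named in the design text were not analysed here.

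Enzalutamide is an antiandrogen used against prostate cancer, whereas OSU-ERb-12 binds oestrogen receptor beta. The start of an active gene usually lies in a stretch free of nucleosomes, where transcription factors and RNA polymerase bind and a transposase cuts easily. Many human promoters, above all those of genes that nearly every cell uses, lie in CpG islands, DNA rich in C and G in which the CpG dinucleotide has been retained.

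Each deposited list gave positions only, 1 list per treatment and with no value per library, so no value carries a replicate error and no test between conditions could be made. Whether a listed region was more or less accessible than in vehicle, and by which caller, test and threshold it was listed, is not given in the sources used here. All 3 lists carry the tag neg in their names, which may bear on direction and which no source used here defines. No region is therefore called gained or lost, and absence from a list shows only that no region was listed there. Sequencing depth is unknown, and a list's length can depend on it. The OSU-ERb-12 list was recognised by the prefix WT, which the titles of those samples carry too, and values for OSU-ERb-12 rest on that match. Shares have exact Clopper-Pearson 95% intervals, which cover counting error only, and neighbouring regions are not independent.

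Promoters that an enzalutamide-only region covered whole are shown as examples of sequence inside these regions. Of 22175 promoter windows in the RefSeq table, each 300 bases long (250 before a transcript start and 50 from it on), 134 lay wholly inside such a region. A region must be at least 300 bp wide to hold one, while 44.6% of the regions measured 200 bp, so these windows do not stand for all of them. Of these windows, 9, at 8 genes, belonged to genes of the lists described below. A single window each of 6 genes is shown, picked after the sequences were seen so that histone, ribosome and respiratory chain genes are represented. The sequences are the 250 bases before the annotated transcript start, 5′ to 3′ on the gene's strand, from RefSeq (GRCh38.p14). Capitals mark matches on either strand to short motifs: the GC box bound by SP1 and KLF factors (GGGCGG), the CCAAT box of NF-Y (CCAAT), the E2F core (GGCGGGAA), the ETS core (CCGGAAG), the TATA box (TATAAA) and the cAMP response element of CREB and ATF factors (TGACGTCA). H3C4 (chr6:26197287-26197536, minus strand) and H4C11 (chr6:27823842-27824091, plus strand) encode histones H3 and H4, RPL39 (chrX:119791631-119791880, minus strand) and MRPL4 (chr19:10251701-10251950, plus strand) encode proteins of the cytosolic and the mitochondrial ribosome, and NDUFA1 (chrX:119871582-119871831, plus strand) and NDUFA10 (chr2:240025343-240025592, minus strand) encode subunits of respiratory complex I.
H3C4: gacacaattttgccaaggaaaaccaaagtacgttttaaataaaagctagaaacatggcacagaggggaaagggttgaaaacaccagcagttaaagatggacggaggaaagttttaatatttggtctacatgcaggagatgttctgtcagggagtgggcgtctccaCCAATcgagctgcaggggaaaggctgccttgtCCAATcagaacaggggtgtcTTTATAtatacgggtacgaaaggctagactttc
H4C11: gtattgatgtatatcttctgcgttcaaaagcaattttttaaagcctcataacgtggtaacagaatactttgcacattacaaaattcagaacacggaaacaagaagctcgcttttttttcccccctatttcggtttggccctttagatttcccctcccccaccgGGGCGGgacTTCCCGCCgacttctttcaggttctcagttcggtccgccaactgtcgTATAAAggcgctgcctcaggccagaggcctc
RPL39: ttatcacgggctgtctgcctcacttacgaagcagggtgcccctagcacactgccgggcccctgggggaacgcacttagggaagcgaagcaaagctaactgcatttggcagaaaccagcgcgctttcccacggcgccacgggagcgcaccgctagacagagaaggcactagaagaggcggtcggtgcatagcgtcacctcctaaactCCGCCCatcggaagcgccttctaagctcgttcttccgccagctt
MRPL4: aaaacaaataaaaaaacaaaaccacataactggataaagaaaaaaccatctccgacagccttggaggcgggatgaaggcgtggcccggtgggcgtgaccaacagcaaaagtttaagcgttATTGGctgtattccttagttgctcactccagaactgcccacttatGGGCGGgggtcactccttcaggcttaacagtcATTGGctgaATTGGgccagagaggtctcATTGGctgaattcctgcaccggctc
NDUFA1: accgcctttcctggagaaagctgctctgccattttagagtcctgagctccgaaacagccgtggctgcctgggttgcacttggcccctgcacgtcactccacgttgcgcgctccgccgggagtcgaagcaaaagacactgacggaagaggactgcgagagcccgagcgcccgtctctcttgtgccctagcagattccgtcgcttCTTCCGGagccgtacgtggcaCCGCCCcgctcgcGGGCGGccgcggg
NDUFA10: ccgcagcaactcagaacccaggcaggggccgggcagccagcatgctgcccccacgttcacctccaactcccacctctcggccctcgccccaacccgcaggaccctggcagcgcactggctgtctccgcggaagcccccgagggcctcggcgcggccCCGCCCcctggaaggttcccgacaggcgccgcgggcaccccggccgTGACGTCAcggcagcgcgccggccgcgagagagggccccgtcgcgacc

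The 6 promoters differed in composition. The 300-base window of H3C4 was 44.3% G or C and that of H4C11 49.7%, and both held a TATA box. In H3C4 it stood with 2 CCAAT boxes, and in H4C11 with a GC box and an E2F core, the element of factors that act at the entry into S phase. NDUFA10 was the richest at 74.3% G or C, with a GC box and a cAMP response element, followed by NDUFA1 at 64.0%, with 2 GC boxes and an ETS core, RPL39 at 60.0% and MRPL4 at 51.3%. None of these 4 held a TATA box, and the MRPL4 window shown held 4 CCAAT boxes and 1 GC box. Another MRPL4 window inside the same region of 800 bp was 66.7% G or C, with 1 GC box, 1 CCAAT box and a cAMP response element. TATA boxes are more frequent among the 6 than among all windows that a region overlapped, as given below. A match of letters does not show that a factor binds there.

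At 5053 of 20037 protein-coding genes (25.2%), at least 1 enzalutamide-only region lay within 1 kb of an end. For regions listed for OSU-ERb-12 only, the count was 1026 genes (5.12%), and for regions of the combination list only, 605 genes (3.02%). As a share of each set, 21.5% of all 23003 enzalutamide-only regions lay at a gene end (95% interval 21.0 to 22.0), beside 5.99% of 15837 OSU-ERb-12-only regions (5.62 to 6.37) and 11.0% of 4698 combination-only regions (10.1 to 11.9). Of the enzalutamide regions that were shared, the shares at a gene end were 26.0% of the 1297 shared with OSU-ERb-12 alone (23.6 to 28.5), 38.6% of the 752 shared with the combination alone (35.1 to 42.1) and 38.9% of the 265 shared with both (33.0 to 45.0). Position at a gene end and absence from the other lists are the rule by which the regions were chosen, so these shares describe the selection.

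Most of the genes held a single region: 4413 had 1, 598 had 2, 39 had 3, and DTL, IRX3 and PVR had 4 each. Conversely, 4175 of the 4942 regions lay at 1 gene, 739 at 2 genes, 27 at 3 and 1 at 4. Of the regions, 896 (18.1%) covered a gene end, 2616 (52.9%) lay within 500 bp of the nearest one without covering it and 1430 (28.9%) over 500 and up to 1000 bp away. The farthest lay 998 bp away and the nearest one left out 1001 bp away. In the last 100 bp inside the limit lay 210 regions, and in the first 100 bp outside it 150. Among enzalutamide gene-end regions left out for an overlap, the smallest overlap was 50 bp, at 19 of 730 regions.

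The genes with the most enzalutamide-only regions had varied functions, and no theme among them was tested. At IRX3, an Iroquois homeobox transcription factor gene, regions of 300, 550, 200 and 200 bp lay within 1 kb of the ends of a gene that spans chr16:54283304-54286787. DTL encodes the substrate receptor of a ubiquitin ligase that acts in S phase and after DNA damage. It had 3 regions centred 947 bp upstream, 397 bp upstream and 177 bp downstream of its start, all also within 1 kb of an end of INTS7, and another near its 3′ end. PVR, which encodes the adhesion receptor CD155, had 1 region centred 765 bp after its start and 3 at its 3′ end, within 1 kb of CEACAM19 as well. The other 9 genes with the highest counts, 3 regions each, were COMMD3, FBXL16, TEX2, RPLP1, SF3B3, TUBA1B, H3C4, ARFIP2 and MEIS1. Of these, RPLP1 encodes a protein of the ribosomal stalk, SF3B3 a subunit of the U2 spliceosomal particle, TUBA1B an alpha tubulin and MEIS1 a homeobox factor. At RPLP1 regions lay 442 bp before and 782 bp after the start, and another at the 3′ end.

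The regions gathered at gene starts rather than at the 3′ ends. Strand came from the RefSeq promoter table, which covers 15842 protein-coding genes (82.0% of those off chromosome 8, and none of the 715 on it); a gene start here is the outermost annotated base, which lay within 1 kb of an annotated transcript start for 92.0% of these genes. Of the 4149 enzalutamide-only regions near such a gene, 3641 lay within 1 kb of a start (87.8%; 86.7 to 88.7) and 508 near a 3′ end only (12.2%). The start share was 89.2% for enzalutamide gene-end regions shared with another list (86.5 to 91.6), 64.2% for OSU-ERb-12-only regions (60.7 to 67.6) and 74.9% for combination-only regions (70.5 to 79.0). The rule treated both ends alike, so the side was not part of the choice. Counted by gene, 3722 genes (23.5% of those with known strand) had an enzalutamide-only region at the start and 676 (4.27%) at the 3′ end.

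Around the start, the enzalutamide-only regions were most frequent just inside the gene. Each pair of a region centre and a start was counted, so a region near several starts counted at each. Within 2 kb, 4278 enzalutamide-only regions gave 4854 pairs. Shares of centres around starts and ends, here and below, are shares of such pairs, and their intervals treat pairs as independent. The enzalutamide-only centres peaked in the bin 200 to 300 bp downstream of the start, with 295 pairs. Within 1 kb the median position was 132 bp downstream (quartiles 295 bp upstream and 471 bp downstream), and 58.9% of centres lay downstream (57.4 to 60.5). Centres within 500 bp of a start outnumbered those 1500 to 2000 bp away 6.68 times, against 1.07 times around 3′ ends, where the profile was flat. The shared enzalutamide regions had a like profile, with a median of 119 bp downstream and 60.2% downstream (56.0 to 64.2). For OSU-ERb-12-only regions this ratio was 1.52, and for combination-only regions 6.22.

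**Figure D1:**
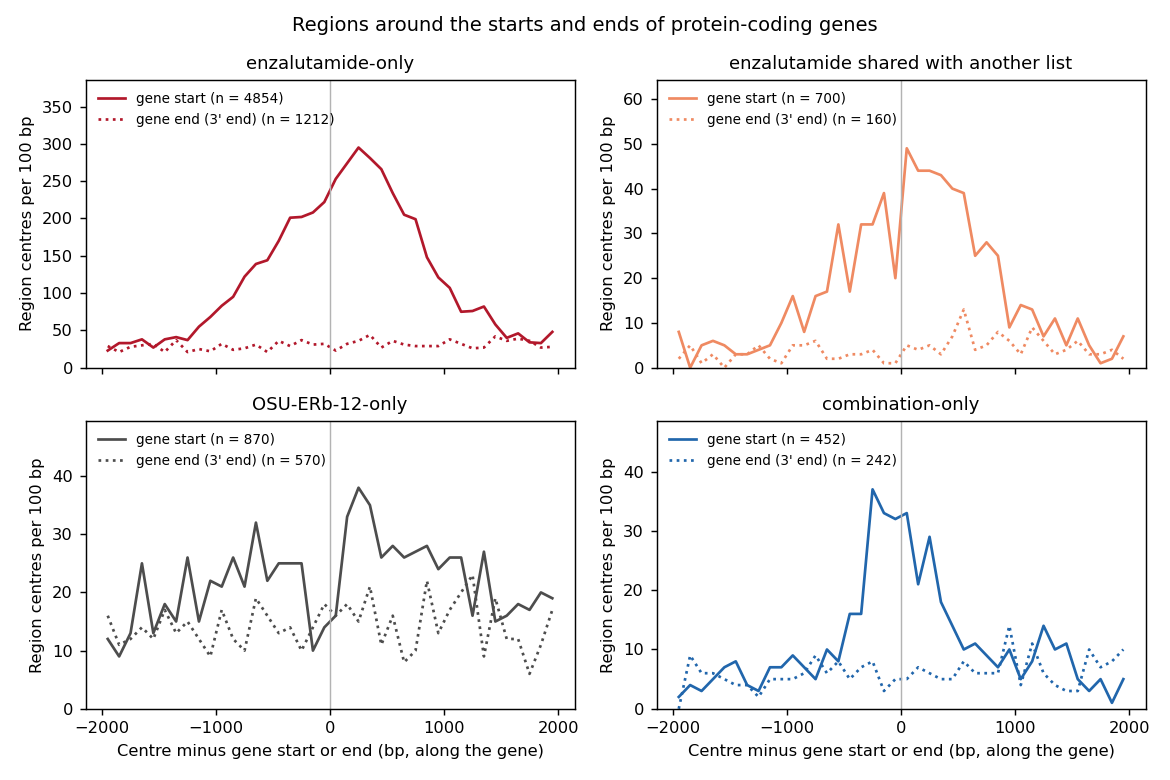
Number of region centres per 100 bp (y axis) by their distance in bp from the start (solid) or the 3′ end (dotted) of protein-coding genes with known strand (x axis, negative upstream), for enzalutamide-only regions, enzalutamide regions shared with another list, OSU-ERb-12-only and combination-only regions. A region near several starts or ends counts at each. The y axes differ between panels. The enzalutamide-only curve peaks 200 to 300 bp downstream of the start and is flat at the 3′ end. The combination-only curve has a broad top, with 37, 33, 32 and 33 pairs in successive bins from 300 bp upstream to 100 bp downstream.

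Combination-only regions sat closer to the start than the enzalutamide-only regions. Within 1 kb, the median distance between centre and start was 398 bp for enzalutamide-only regions and 281 bp for combination-only regions. In the 300 bp before the start lay 16.4% of the enzalutamide-only centres (15.2 to 17.6), against 30.4% of the combination-only centres (25.6 to 35.7). Downstream of the start lay 58.9% of the enzalutamide-only centres, as above, and 48.4% of the combination-only ones (42.9 to 53.9). At the starts of 95 genes both kinds were present. By the rule they cannot overlap, so they could not both lie over the start base. The nearest region of each kind was compared, by the distance of its centre from the start. At 67 of the 95 (70.5%; 60.3 to 79.4) the enzalutamide-only region lay farther out, with median distances of 525 bp for enzalutamide-only and 269 bp for combination-only regions. At the starts of the 139 genes with an enzalutamide-only and an OSU-ERb-12-only region, the enzalutamide-only one was the farther at 41 (29.5%; 22.1 to 37.8), with medians of 347 bp for enzalutamide-only and 633 bp for OSU-ERb-12-only regions. This comparison was made after the positions at single genes had been seen. The same pair of regions can count at neighbouring genes, as at HOXC4 and HOXC5. The genes are thus not independent, and these intervals are too narrow.

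Among the listed genes with known strand, 13 had both an enzalutamide-only and a combination-only region at the start. At 10 of them, by the nearest region of each kind, the enzalutamide-only region was the farther. HSPA5 encodes BiP, the main chaperone of the endoplasmic reticulum. Its enzalutamide-only regions were centred 642 bp downstream (chr9:125240601-125240800) and 507 bp upstream (chr9:125241751-125241950), on either side of a combination-only region centred 82 bp upstream (chr9:125241301-125241550). EEF1A1, which encodes the elongation factor that brings tRNA to the ribosome, had the same order. Its enzalutamide-only regions were centred 856 bp downstream and 368 bp upstream, with a combination-only region 281 bp downstream between them. At HNRNPU, a gene of a nuclear RNA-binding protein, the enzalutamide-only region ran from 244863801 to 244864500 on chromosome 1 and the combination-only region from 244864501 to 244864700, so they abutted without sharing a base and were counted as different. The exceptions were CCT3, a subunit gene of the chaperonin that folds actin and tubulin, the histone methyltransferase gene EZH1 and the AP-1 gene JUND.

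**Figure D2:**
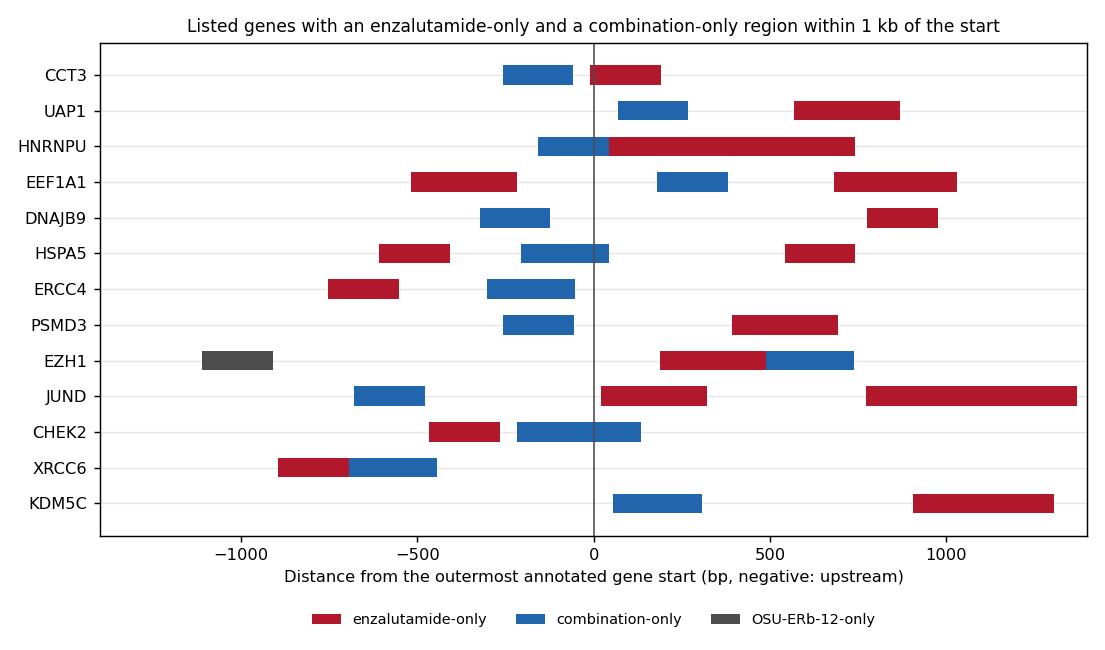
Extent of each region (bars) by its distance in bp from the outermost annotated gene start (x axis, vertical line at 0) at the 13 listed genes with an enzalutamide-only (red) and a combination-only region (blue) within 1 kb of the start; the OSU-ERb-12-only region at EZH1 is grey. At HSPA5 and EEF1A1 the enzalutamide-only regions lie on both sides of the combination-only one, and at HNRNPU, XRCC6 and EZH1 both kinds abut.

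At single starts the arrangement varied. Of the 3361 genes with 1 enzalutamide-only region at the start, 1716 (51.1%) had it wholly downstream, 1056 (31.4%) wholly upstream and 589 (17.5%) over the start base. Of the 361 genes with 2 or more, 240 (66.5%) had them on both sides with the start base between them, 28 all downstream and 13 all upstream; at the other 80 (22.2%) a region covered the start. The gap between neighbours at 1 start had a median of 600 bp, and none was under 300 bp, the smallest spacing in the list. Of the genes that share a divergent promoter, with a start on the other strand within 1 kb and pointing away, an enzalutamide-only region lay at 550 of 1605 (34.3%; 31.9 to 36.6), against 3172 of the 14237 other starts (22.3%; 21.6 to 23.0). Of the 3641 regions at a known start, 405 lay within 1 kb of starts on both strands. The shares of divergent and other starts were 4.61% and 3.31% for OSU-ERb-12-only regions and 2.99% and 2.11% for combination-only regions.

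Wide regions were more common at gene ends. The enzalutamide-only gene-end regions had a median width of 250 bp (quartiles 200 and 350), and 340 (6.88%; 6.19 to 7.62) were 500 bp or wider. Of the 18061 enzalutamide-only regions elsewhere, 1.95% were (1.76 to 2.17), and of the OSU-ERb-12-only and combination-only gene-end regions 0.738% (0.297 to 1.52) and 0.58% (0.12 to 1.69). The shared enzalutamide gene-end regions were wider, 14.7% at 500 bp or more (12.2 to 17.4), but a wide region is more apt to overlap another list, which the rule used, and also reaches a gene end from farther away. Widths of 200 bp, the shortest listed, made up 44.6% of the enzalutamide-only gene-end regions, 67.4% of the OSU-ERb-12-only and 69.4% of the combination-only ones.

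The widest enzalutamide-only region measured 1500 bp (chr2:70086201-70087700) and covered the starts of PCBP1, an RNA-binding protein gene, and ASPRV1 on the opposite strand. Regions of 1200 bp lay at OTULINL, at L3MBTL3, a gene of a protein that binds methylated histones, and at BCOR, a gene of a corepressor of BCL6 (chrX:40175651-40176850). Those at GOLM2 and BMPR1B, a bone morphogenetic protein receptor gene, measured 1150 and 1100 bp. A region of 1050 bp covered the start of JAK1, a kinase gene of cytokine signalling (chr1:65067001-65068050), and one of 1400 bp lay at HNF4G, a nuclear receptor gene.

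Among the androgen response genes, FKBP5, an androgen-induced gene of a steroid receptor cochaperone, had an enzalutamide-only region of 350 bp centred 257 bp inside the gene (chr6:35728151-35728500). KLK2, a kallikrein gene induced by androgens, had 1 of 200 bp centred 138 bp upstream. KLK3, which encodes prostate-specific antigen, and TMPRSS2, another androgen-induced gene, had none at an end. Over the 51 listed androgen response genes, 17 had an enzalutamide-only region at an end (33.3%; 20.8 to 47.9), an interval that holds the 25.2% of all protein-coding genes. An OSU-ERb-12-only region lay at 3 (5.88%; 1.23 to 16.2) and a combination-only region at 2 (3.92%; 0.478 to 13.5). These 2 intervals held the 5.12% and 3.02% of all protein-coding genes. The others named by the rule for an enzalutamide-only region were KRT8, SMS, LMAN1, STK39, ADAMTS1 and BMPR1B. ESR2, the gene of oestrogen receptor beta, had 1 region of 350 bp centred 537 bp inside the gene (chr14:64337901-64338250), and ESR1 had none.

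Among the listed prostate lineage transcription factors, 12 of 24 genes (50.0%; 29.1 to 70.9) had an enzalutamide-only region at an end, 2 an OSU-ERb-12-only region and none a combination-only region, beside 25.2%, 5.12% and 3.02% of all protein-coding genes. At this list's size the counts for the other 2 kinds are near those shares. FOXA1, a pioneer factor that opens chromatin for other factors, had a region of 700 bp centred 501 bp upstream of its start (chr14:37595401-37596100) beside 1 shared enzalutamide region. HOXB13, a homeobox factor of the prostate epithelium, had 1 of 300 bp that lay 100 bp from an end of the gene (chr17:48728351-48728650). SOX9 had a region of 900 bp (chr17:72119951-72120850), GATA3 1 of 350 bp centred 392 bp inside the gene, and MEIS1 and GRHL2 had 3 and 2 regions. MYC, outside this list, had 1 of 200 bp beside a shared one.

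Of 56 genes for enzymes that add or remove histone methylation, and for their core partners, 28 (50.0%; 36.3 to 63.7) had an enzalutamide-only region, 3 (5.36%) an OSU-ERb-12-only and 5 a combination-only region. Over all protein-coding genes these shares were 25.2%, 5.12% and 3.02%, so the OSU-ERb-12-only count was at the background. The combination-only share in this list was 8.93% (2.96 to 19.6), an interval that holds the 3.02%. EHMT1, a methyltransferase of lysine 9 of histone H3, had 3 regions, centred 854 and 179 bp upstream and 820 bp downstream of the start. EED, a core subunit of Polycomb repressive complex 2, had 1 of 850 bp across its start (chr11:86244551-86245400) and another of 200 bp. KDM3B, a demethylase gene, had regions of 300 and 700 bp on either side of its start. At PRMT5, an arginine methyltransferase gene, a region of 350 bp was centred on the start base (chr14:22929201-22929550). At KMT2C, a methyltransferase gene of enhancer marks, 1 of 550 bp covered it.

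Of 80 cytosolic ribosomal protein genes, 34 (42.5%; 31.5 to 54.1) had an enzalutamide-only region, with 46 regions between them; 6 had an OSU-ERb-12-only and 2 a combination-only region. The share of all protein-coding genes with an enzalutamide-only region was 25.2%, and that of CpG-rich genes alone, given below, was higher. For the other 2 kinds the shares were 7.5% (2.8 to 15.6) and 2.5% (0.304 to 8.74). These intervals held the 5.12% and 3.02% of all protein-coding genes. RPL4 had 3 enzalutamide-only regions, centred 979 and 204 bp downstream and 595 bp upstream, and RPS2 and RPS21 had 3 each. The shares were 29 of 77 mitochondrial ribosomal protein genes (37.7%; 26.9 to 49.4) and 25 of 56 translation factor and tRNA synthetase genes (44.6%; 31.3 to 58.5), among them EIF4G2 with a region of 650 bp centred 500 bp inside the gene. Of these 56 genes, 7 had an OSU-ERb-12-only region (12.5%, interval 5.18 to 24.1), and this interval lay wholly above the 5.12% of all protein-coding genes. A combination-only region lay at 2 of the 56 (3.57%, interval 0.435 to 12.3), and this interval held the 3.02%. MRPL32 and PSMA2, a proteasome subunit gene, have divergent starts, and 2 regions of 200 bp each (chr7:42932401-42932600 and chr7:42933051-42933250) lay within 1 kb of both.

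In energy metabolism, 30 of 74 respiratory chain genes (40.5%; 29.3 to 52.6) had an enzalutamide-only region, beside 25.2% of all genes. An OSU-ERb-12-only region lay at 3 (4.05%; 0.844 to 11.4) and a combination-only region at none (0.0 to 4.86). These 2 intervals held the 5.12% and 3.02% of all protein-coding genes. COX4I1, a subunit gene of cytochrome c oxidase, had regions centred 769 bp upstream and 855 bp downstream of its start. Of 26 glycolysis genes, 13 did (50.0%; 29.9 to 70.1). ENO2, the enolase gene also used as a neuroendocrine marker, had 3, at 629 bp upstream, at 770 bp downstream and at the 3′ end. PGK1, the phosphoglycerate kinase gene, had 2, at 322 bp upstream and 952 bp downstream. GAPDH and LDHA each had 1 at the 3′ end, and SLC2A1, the glucose transporter gene GLUT1, had 2 there. Of 30 cholesterol and lipid synthesis genes, 12 (40.0%; 22.7 to 59.4, which holds the 25.2%) had a region, among them MVK, IDI1 and CYP51A1 of the mevalonate and sterol pathways.

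In the stress-related groups, 16 of 33 chaperone and heat shock genes (48.5%; 30.8 to 66.5) had an enzalutamide-only region, beside 25.2% of all genes. None had an OSU-ERb-12-only region (0.0 to 10.6), an interval that holds the 5.12% of all protein-coding genes. A combination-only region lay at 4 (12.1%; 3.4 to 28.2), beside 3.02% of all protein-coding genes. HSPD1, which encodes the mitochondrial chaperonin HSP60, had a region of 300 bp over its start, within 1 kb of its divergent neighbour HSPE1 (chr2:197500101-197500400). HSP90AB1 and HSP90AA1, the genes of the cytosolic HSP90 proteins that hold steroid receptors ready for ligand, had 2 each. Of 28 unfolded protein and integrated stress response genes, 11 did (39.3%; 21.5 to 59.4), with PDIA4, a disulphide isomerase gene, at 3 regions and ATF4 at 1 of 400 bp centred 491 bp downstream of its start. Of 36 AP-1 and immediate early genes, 13 (36.1%; 20.8 to 53.8) had an enzalutamide-only region and 6 (16.7%; 6.37 to 32.8) a combination-only region, beside 3.02% of all protein-coding genes. For this list and the unfolded protein list, the enzalutamide-only interval held the 25.2%. Merging within 1 kb left 8 AP-1 and immediate early genes in place of 13, and a window of 2 kb gave 20. EGR1 had 3 enzalutamide-only regions and FOS and JUND 2 each, and each of these 3 genes also had a combination-only region.

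For the lists in this paragraph the intervals held the 25.2% of all protein-coding genes. Proteasome subunits had an enzalutamide-only region at 13 of 38 genes (34.2%; 19.6 to 51.4), DNA repair at 22 of 60 (36.7%; 24.6 to 50.1), splicing factors at 18 of 57 (31.6%; 19.9 to 45.2), p53 pathway and apoptosis at 11 of 37 (29.7%; 15.9 to 47.0), replication-dependent histones at 19 of 67 (28.4%; 18.0 to 40.7), nuclear receptors and coregulators at 15 of 54 (27.8%; 16.5 to 41.6) and the cell cycle at 14 of 52 (26.9%; 15.6 to 41.0). CCND1, the cyclin D1 gene, had a region of 800 bp, and PCNA, CCNA2 and MCM6, genes of DNA replication, had 1 each. Histone genes are short and lie in clusters, so that 1 region can count for several of them, as the region at chr6:26198951-26199350 did for H3C4, H2AC7 and H2BC7.

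Markers of cell types were counted as genes with or without a region. The lists hold no level, so these counts cannot check the identity of the cells. Of 14 luminal prostate markers, 7 had an enzalutamide-only region (50.0%; 23.0 to 77.0), KRT8, KRT18, HOXB13, FOLH1 and KLK2 among them. A single region (chr12:52948901-52949250) counted for both KRT8 and KRT18, and KLK3 and TMPRSS2 had none. The counts were 4 of 14 for basal markers (28.6%; 8.39 to 58.1), 7 of 19 for neuroendocrine markers (36.8%; 16.3 to 61.6), 2 of 18 for leukocyte markers (11.1%; 1.38 to 34.7), namely CD8A and CD68, and 0 of 15 for fibroblast markers (0.0 to 21.8). The CD68 region also lay within 1 kb of EIF4A1, a translation factor gene. Except for fibroblast markers, these intervals held the 25.2% of all protein-coding genes.

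**Figure D3:**
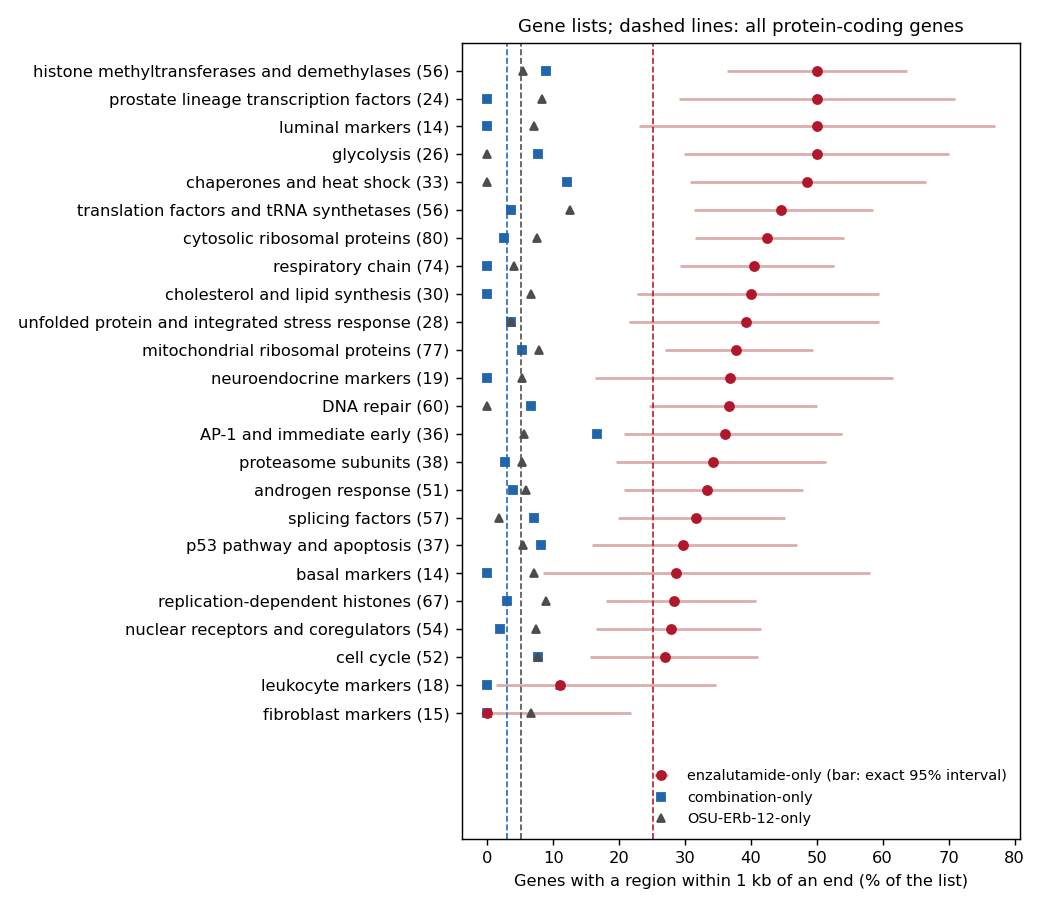
Percentage of the genes of each list (number of genes in brackets) that had an enzalutamide-only region (red, with exact 95% interval), a combination-only region (blue) or an OSU-ERb-12-only region (grey) within 1 kb of an end; dashed lines mark all protein-coding genes, at 25.2%, 3.02% and 5.12% for the 3 kinds. In 22 of 24 lists the enzalutamide-only percentage lies above its line, and in 8 the whole interval does.

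In 22 of the 24 lists the share of genes with an enzalutamide-only region was above the 25.2% of all protein-coding genes, and in 8 lists the whole interval was. The type of promoter moved with these shares. Of the 11132 genes with a CpG-rich promoter window (an observed over expected CpG ratio of at least 0.6), 3660 (32.9%; 32.0 to 33.8) had an enzalutamide-only region at an end, against 515 of the 4710 genes without one (10.9%; 10.1 to 11.9). Enzalutamide regions shared with another list also differed, with shares of 5.47% (5.06 to 5.91) and 1.93% (1.56 to 2.37). For OSU-ERb-12-only regions the shares were 5.96% and 3.76%, and for combination-only regions 3.55% and 1.91%. A window was known for at least 80% of the genes in 13 lists. Among the CpG-rich genes of these, the share was above 32.9% in 10 lists, with the whole interval above it in 2: chaperones and heat shock, at 55.2% (35.7 to 73.6), and histone methylation, at 52.0% (37.4 to 66.3). For cytosolic ribosomal proteins it was 39.1% (27.1 to 52.1), for mitochondrial ones 37.3% (25.8 to 50.0) and for glycolysis 52.6% (28.9 to 75.6), and these intervals held the 32.9%. Translation factors and tRNA synthetases, with a window for 78.6% of genes, fell just under the 80% limit. Their share was 48.8% (33.3 to 64.5), with the whole interval above 32.9%. Prostate lineage factors, with a window for 66.7% of genes, were also left out, at 45.5% (16.7 to 76.6). Without the shortest regions, 7 chaperone and heat shock genes had a region in place of 16, and 19 histone methylation genes in place of 28. For translation factors and tRNA synthetases it was 13 in place of 25, beside 2979 in place of 5053 of all protein-coding genes. Whether the genes are expressed in 22Rv1 was not measured here, and its part in these shares was not tested.

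The promoters touched by enzalutamide-only regions were rich in C and G. Of the 22175 windows, 1564 (at 1422 genes) overlapped such a region. Their median content of G and C was 67.3% (quartiles 60.0 and 74.3), against 62.3% for all windows, and 86.5% of them were CpG-rich (84.7 to 88.2), against 62.2% of all. The same held for the windows of shared enzalutamide regions (85.3%; 80.5 to 89.3) and of combination-only regions (92.0%; 86.9 to 95.5), while those of OSU-ERb-12-only regions stood lower, at 70.9% (61.8 to 79.0).

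Motif content was set against all windows, and then against CpG-rich windows alone. A GC box (GGGCGG) stood in 74.4% of the windows with an enzalutamide-only region (72.2 to 76.6), against 56.3% of all, and a TATA box (TATAAA) in 5.18% (4.13 to 6.40), against 9.47%. Among CpG-rich windows alone the differences were small: 80.6% (78.4 to 82.6) against 77.5% for the GC box, and 4.07% (3.08 to 5.26) against 4.58% for the TATA box. The CCAAT box stood in 30.5% of the CpG-rich windows with an enzalutamide-only region (28.1 to 33.1) and in 46.9% of those with a combination-only region (39.0 to 54.9), against 33.4% of all. The other motifs searched on both strands were the ETS core (CCGGAAG, 12.8% of all windows), the NRF1 core (GCGCATGC, 3.74%), the YY1 core (AAGATGGCG, 2.41%), the cAMP response element (TGACGTCA, 2.26%), the AP-1 site (TGANTCA, 6.14%), the E-box of MYC and USF factors (CACGTG, 8.34%), the E2F core (GGCGGGAA, 3.98%), the FOXA core (TGTTTAC, 2.85%), the HOXB13 core (CAATAAA, 2.90%) and the oestrogen receptor half-site (GGTCA, 35.6%). In CpG-rich windows with an enzalutamide-only region, each of these 10 had an interval that held the share among all CpG-rich windows. The GC box and the E2F core can share letters, as can the CCAAT box and the HOXB13 core, the E2F core and the YY1 core, and other pairs by a few letters.

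**Figure D4:**
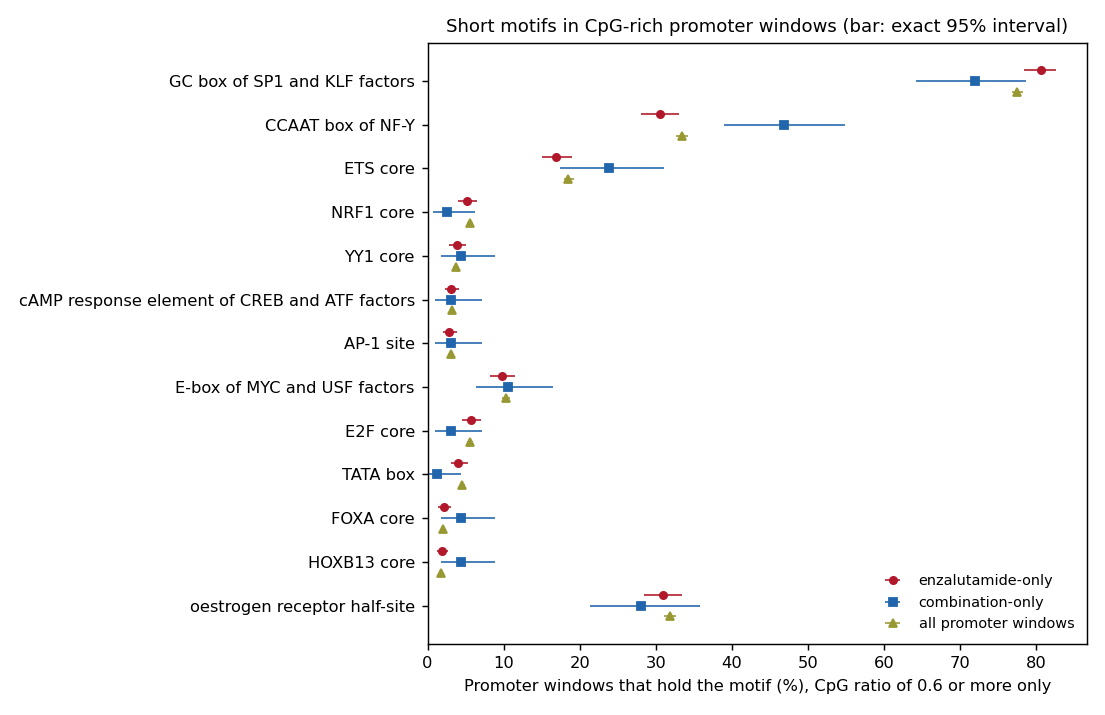
Percentage of CpG-rich promoter windows that hold each motif on either strand (x axis, with exact 95% intervals), for windows overlapped by an enzalutamide-only region (red circles), by a combination-only region (blue squares) and for all CpG-rich windows (olive triangles). The red circles lie close to the triangles throughout, and the CCAAT box is at 46.9% for combination-only regions, against 33.4% for all.

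The enzalutamide-only gene-end regions were spread over the chromosomes much as genes are. The share of protein-coding genes with such a region lay between 20.8% on chromosome 22 (17.2 to 24.9) and 29.4% on chromosome 16 (26.4 to 32.6), apart from 6.35% on chromosome Y (1.76 to 15.5). The share of all enzalutamide-only regions that lay at a gene end varied more, with 40.0% on chromosome 19, 34.9% on chromosome 17, 33.2% on chromosome 16 and 31.1% on the X chromosome, against 15.1% on chromosome 3 and 11.7% on chromosome 8. The gene-rich chromosome 19 thus had the highest share of regions at gene ends, while 23.5% of its genes had one (21.3 to 25.8).

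**Figure D5:**
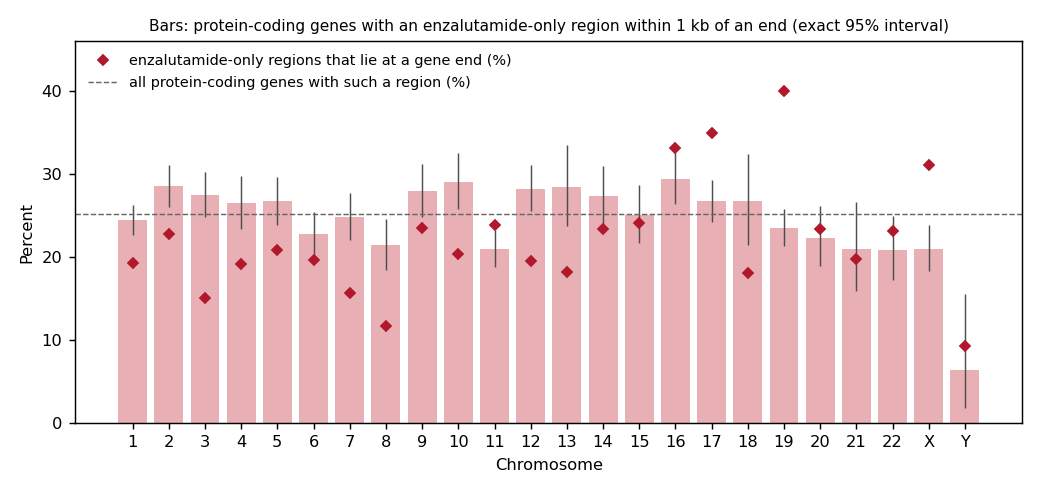
Percentage of protein-coding genes of each chromosome with an enzalutamide-only region within 1 kb of an end (bars, with exact 95% intervals; dashed line 25.2% for all chromosomes) and percentage of each chromosome's enzalutamide-only regions that lie at a gene end (diamonds). The bars stay between 20.8% and 29.4% except on chromosome Y, and the diamonds run up to 40.0% on chromosome 19.

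Regions of the other lists were seldom near. The nearest OSU-ERb-12 region lay a median of 36.1 kb from an enzalutamide-only gene-end region, the nearest combination region 96.0 kb and the nearest other enzalutamide region 16.4 kb. Within 1 kb lay an OSU-ERb-12 region in 4.82% of cases, a combination region in 4.23% and another enzalutamide region in 19.0%. These distances depend on the lengths of the lists. The rule also left out every enzalutamide region that overlapped the other lists, 730 of them at gene ends. Distances to those lists are thus partly set by the selection, whereas no region was left out for lying near another enzalutamide region. At the level of genes the kinds met about as often as over all protein-coding genes, of which 25.2% had an enzalutamide-only, 5.12% an OSU-ERb-12-only and 3.02% a combination-only region. In all, 281 of the 5053 genes with an enzalutamide-only region (5.56%) also had an OSU-ERb-12-only region at an end, which is 27.4% of the 1026 genes with an OSU-ERb-12-only region, and 173 (3.42%) a combination-only region, which is 28.6% of the 605 with one. NOS1AP, HBEGF, KMT2A, SCAF11 and EZH1 had all 3 kinds.

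Genes with an enzalutamide-only region at an end had a median length of 30.5 kb (quartiles 11.5 and 80.4), against 24.4 kb for genes with an OSU-ERb-12-only region, 22.7 kb for those with a combination-only region and 24.1 kb for all protein-coding genes. Genes of 2 kb or less made up 2.57% of them, against 6.27% of all. Of the 659 predicted genes with LOC symbols, 78 (11.8%) had an enzalutamide-only region. An end of a long non-coding RNA gene also lay within 1 kb of 919 of the 4942 regions (18.6%; 17.5 to 19.7), against 11.6% of OSU-ERb-12-only (9.63 to 13.8) and 17.6% of combination-only gene-end regions (14.4 to 21.2). The share was higher, at 23.2% (20.1 to 26.4), for enzalutamide gene-end regions shared with another list.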

How the data were processed

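ATAC-seq was done on 22Rv1 cells, 3 biological samples per group per the labels' protocols, and reads were split into nucleosome-free and other fractions with ATACSeqQC, per the same protocols. Per the submitters' processing notes, FastQC and Trimmomatic were used, and positions are on hg38. Not given in the sources used here are the peak caller, the test and its threshold, the pooling of samples and any shift of transposase cut sites. The deposited lists have no header, and the score column that the authors deposited is 0 in every row, so regions could not be ranked. Boundaries lie on a grid of 50 bp. Depth per sample is unknown. The 12 samples have a list per treated group and no values per library, so no test was run.

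An overlap of 1 bp or more made regions shared, and a region lay at a gene end if any base was within 1 kb of either end of a RefSeq protein-coding gene (GRCh38.p14, 24 chromosomes); coordinates are 1-based. Strand came from the RefSeq promoter table and was missing for 4195 genes. Work was done in Python 3.11.15 with numpy 2.4.6, pandas 2.3.3 and scipy 1.17.1, and the overlap and gene-end rules were tested on simulated data. The regions, the 24 gene lists, the motifs and the naming rule were chosen with earlier results of these data known. The rule names the 12 genes with the most regions, the 8 widest regions, up to 6 genes per list and 8 genes of interest; not all are printed, and 1 gene and 1 motif are not reported here. Genes outside it, such as CCT3, EIF4A1, HSPE1 and those with all 3 kinds, were named after their values were seen. Alternatives covered the window, the overlap rule, predicted genes, sex chromosomes, the shortest regions and merging.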

Additional observations from a re-analysis of the deposited data

How the results depend on the processing

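No paired analysis was possible because the lists hold no values per sample, and for the same reason no replicate could be left out. The 4942 enzalutamide-only gene-end regions numbered between 3512 and 6054, and their 5053 genes between 3647 and 6070, under a window of 500 bp or 2 kb, an overlap of at least 50% of the shorter region, sharing within 500 bp, omission of predicted genes, the region's centre, autosomes alone and merging within 1 kb. A window of 5 kb gave 7840 regions at 7725 genes, and leaving out the shortest enzalutamide regions 2740 at 2979 genes. The share of enzalutamide-only regions at gene ends, 21.5%, was 15.3% with 500 bp, 26.3% with 2 kb, 34.1% with 5 kb, 20.2% by the centre, 22.5% without the shortest regions and 20.3% after merging. The share at a start, 87.8%, was 89.1%, 85.6% and 81.7% with these 3 windows. A window's width sets how many regions fall in it; the cause of the other moves was not tested. The counts of the 24 gene lists moved by more than 1.5 times in 14 lists without the shortest regions, in 8 with 5 kb, in 5 with 500 bp, in 2 with 2 kb and in 1 after merging. Unknown depth limits every absence from a list.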

Other observations

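Of the enzalutamide-only gene-end regions, 8 overlapped an annotated microRNA hairpin: MIR6084 near PINK1, MIR4787 near DOCK3, MIR12115 near ADGRA3, MIR4665 near BRD10, MIR3621 near GRIN1 and LRRC26, MIR4488 near LRRC10B, MIR6125 near USP15 and TAFA2, and MIR718 near IRAK1. Each of these regions also lay within 1 kb of an end of the protein-coding genes named beside it, so whether the region belongs to the microRNA or to the gene cannot be told apart. The count is out of 4942 regions and has no count for the other kinds of region beside it. Whether 8 is many or few was not tested.

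Of the 508 regions near a 3′ end only, 6 (1.18%) lay within 1 kb of any start in the promoter table. H3C4 shows such a case: its gene model spans 2 annotated starts, and the region that covers the promoter window shown lies near the 3′ end of the longer model.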
